A study of Mus musculus with 4 samples.

Results

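The genes described here are 10 transcription factors that direct the secretory cell types of the intestinal epithelium: Atoh1, Gfi1, Spdef, Creb3l4, Foxa3, Neurog3, Neurod1, Insm1, Sox4 and Pou2f3. They were chosen by name, and all 10 were among the 24865 genes tested. They were measured in Lgr5-high intestinal stem cells sorted by flow cytometry, on 4 single-colour Agilent arrays. Knockout cells came from Ifnar1-/-:Lgr5-EGFP-Ires-CreERT2 mice (2 samples), in which Ifnar1, a subunit of the type I interferon receptor, is disrupted, and control cells from Lgr5-EGFP-Ires-CreERT2 mice (2 samples), so both genotypes carried the reporter that places EGFP and CreERT2 at the Lgr5 locus. Both had been given poly(I:C), which mimics viral double-stranded RNA and induces type I interferon, by intraperitoneal injection at 2 mg/kg daily for 1 week. The comparison is therefore knockout against control under treatment, and untreated mice were not analysed here. The labels do not state whether each sample is a different animal, so the p-values cover only the spread among these samples, and that spread may be technical.

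In the crypt, progenitors leaving the stem cell state choose between absorptive and secretory fates by lateral inhibition. Cells that receive Notch signals express Hes1 and silence Atoh1, while cells that escape them express Atoh1 and become secretory. Downstream of Atoh1, Gfi1 and Spdef lead towards goblet and Paneth cells, and Neurog3 towards enteroendocrine cells, where Neurod1 and Insm1 act later. Pou2f3 is required for tuft cells, the chemosensory cells of the epithelium.

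None of the 10 factors passed the test over all genes, with or without the replicate number as a block. Spdef and Gfi1, which act in goblet and Paneth cells, and Creb3l4 had the 3 largest negative differences, lower in the knockout by 0.71 to 0.84 on the log2 scale in group means, and both knockout arrays lay below both control arrays for each. Atoh1 differed by -1.05 within replicate 1 and was level within replicate 2. Foxa3, which is also found in goblet cells, differed by -0.08 in group means, and its groups overlapped. Neurog3, Insm1 and Sox4 differed by -0.29 to 0.14 in group means. The probes of Neurod1 disagreed, and Pou2f3 was higher in the knockout, almost all of it within replicate 2.

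The promoter windows of the 3 factors whose knockout arrays lay below both control arrays are shown so that they can be set against the window of an interferon-stimulated gene. Each runs from 250 bases before to 50 bases after an annotated start, in the gene's own direction, and comes from RefSeq on build GRCm38.p6. The capitals mark E-boxes, the 6-letter motif CANNTG that basic helix-loop-helix factors such as Atoh1 bind and that reads the same on both strands. Gfi1 has 2 such windows and Creb3l4 has 3, of which the one farthest upstream is shown; another Creb3l4 window held 3 E-boxes. In the Oas1a window the capitals mark instead the interferon-stimulated response element, searched as GAAA, any 2 bases and another GAAA, or its reverse complement. Its 2 matches there overlap. Oas1a was chosen because its window holds this element: it had the smallest unadjusted p among the listed interferon-stimulated genes with such a window. The element's presence there is therefore not a result.
Gfi1, chr5:107725756-107726055, minus strand: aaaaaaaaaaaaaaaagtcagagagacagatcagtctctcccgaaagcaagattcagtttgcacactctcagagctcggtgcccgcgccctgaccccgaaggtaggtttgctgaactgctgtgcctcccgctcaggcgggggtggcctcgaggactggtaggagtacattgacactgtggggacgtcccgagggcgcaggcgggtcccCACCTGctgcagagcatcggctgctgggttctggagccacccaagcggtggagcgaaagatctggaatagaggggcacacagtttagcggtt
Spdef, chr17:27728902-27729201, minus strand: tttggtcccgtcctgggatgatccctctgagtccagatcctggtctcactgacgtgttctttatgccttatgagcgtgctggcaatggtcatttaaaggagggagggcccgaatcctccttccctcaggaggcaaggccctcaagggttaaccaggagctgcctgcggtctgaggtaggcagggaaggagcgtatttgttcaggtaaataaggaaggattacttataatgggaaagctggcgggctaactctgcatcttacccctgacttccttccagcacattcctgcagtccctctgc
Creb3l4, chr3:90243463-90243762, minus strand: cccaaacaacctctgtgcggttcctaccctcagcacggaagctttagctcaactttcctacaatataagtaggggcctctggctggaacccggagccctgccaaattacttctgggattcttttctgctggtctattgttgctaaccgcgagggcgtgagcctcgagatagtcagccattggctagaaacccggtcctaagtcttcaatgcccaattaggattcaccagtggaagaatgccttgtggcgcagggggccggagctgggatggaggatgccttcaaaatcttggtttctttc
Oas1a, chr5:120907476-120907775, minus strand: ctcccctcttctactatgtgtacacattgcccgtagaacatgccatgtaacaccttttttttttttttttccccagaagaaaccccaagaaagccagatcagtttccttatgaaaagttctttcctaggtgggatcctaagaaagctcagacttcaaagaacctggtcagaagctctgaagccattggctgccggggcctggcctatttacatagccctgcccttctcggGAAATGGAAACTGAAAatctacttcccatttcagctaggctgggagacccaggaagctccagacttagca

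RefSeq windows were found for 8 of the 10 factors, 11 windows in all, while Insm1 and Pou2f3 had none in the table. The interferon element was in 0 of these 11 windows, in 6 of 11 windows of the 10 interferon-stimulated genes with one, and in 3.44% of all 32851 windows. An E-box was in 7 of the 11 windows, against 72.3% of all windows. These counts say which letters stand in windows of this length and nothing about binding.

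Levels are given as the log2 signal of a gene's brightest probe minus the array's 75th percentile. A level is not compared between genes, because each probe binds with its own strength. All 10 brightest probes were well above background on all 4 arrays, so no member entered the test through the brighter group alone. Replicates 1 of both groups shared a slide and a scan, as did replicates 2, and 0 spots were saturated.

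**Figure D1:**
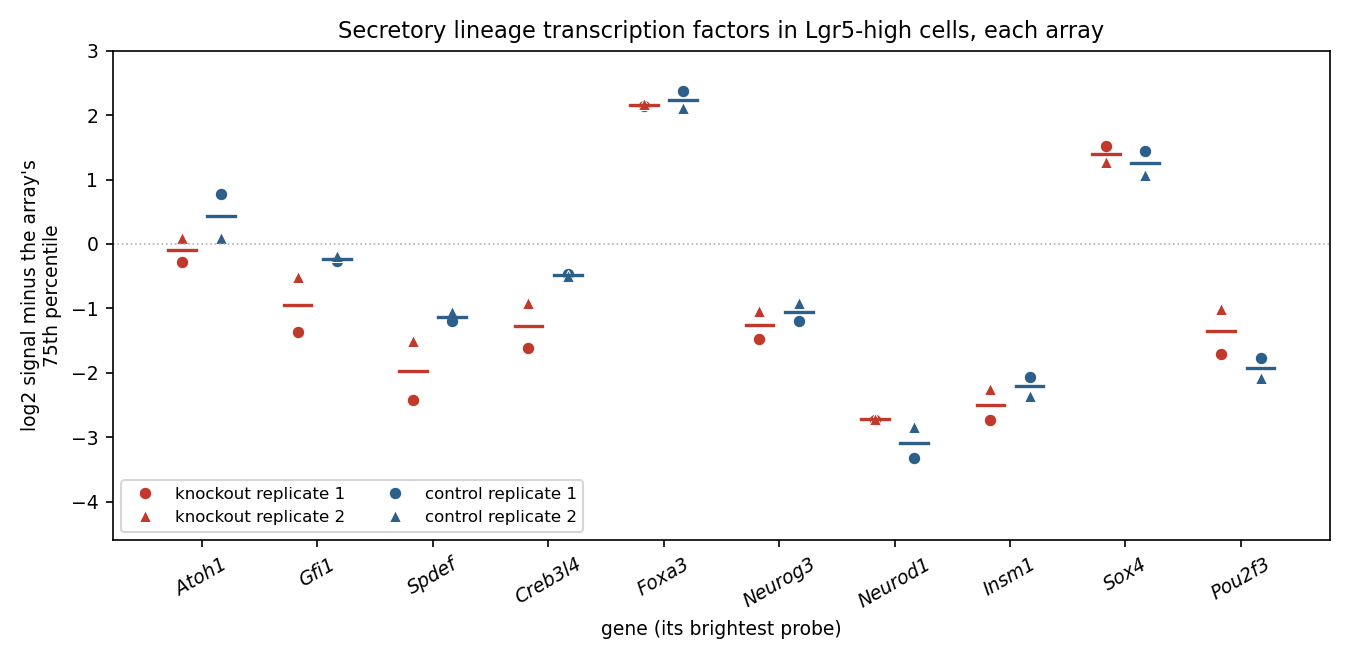
Level of each factor on each array (log2 signal minus the array's 75th percentile, brightest probe); red, knockout; blue, control; circles, replicate 1; triangles, replicate 2; bars, group means. Both knockout arrays lie below both control arrays for Gfi1, Spdef and Creb3l4, and above them for Neurod1 and Pou2f3.

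Atoh1 (chr6:64729125-64731245), the basic helix-loop-helix factor that commits a progenitor to a secretory fate, was at -0.28 and 0.10 in the knockout samples, against 0.77 and 0.09 in the control samples. Control replicate 1 was the high value, and the other 3 lay within a narrow band, so that the groups overlapped. The difference was -1.05 within replicate 1 and 0.0051 within replicate 2, or -0.52 ± 0.31 in group means (SE, 2 samples a group; limma, adjusted p = 1.00; with the replicate block, adjusted p = 0.477). The 95% interval ran from -1.30 to 0.25, so these arrays could not tell a difference of either sign within it from none.

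Gfi1 (chr5:107716655-107725805), a zinc finger repressor that acts after Atoh1 and turns cells towards goblet and Paneth fates and away from endocrine ones, was at -1.37 and -0.51 in the knockout samples, against -0.27 and -0.19 in the control samples. The 2 control values nearly coincided, and knockout replicate 1 lay far below the other 3. Gfi1 differed by -1.10 within replicate 1 and by -0.32 within replicate 2. In group means this was -0.71 ± 0.34, a 1.64-fold lower signal (SE; limma, adjusted p = 1.00, and 0.346 with the replicate block).

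Spdef (chr17:27714446-27731003), the ETS-family factor under which goblet and Paneth cells mature, was at -2.43 and -1.50 in the knockout samples, against -1.20 and -1.06 in the control samples. It had the largest difference of the 10, -0.84 ± 0.38 in group means, or 1.79-fold lower (SE; limma, adjusted p = 1.00, and 0.335 with the replicate block). Again knockout replicate 1 was the lowest array: the difference was -1.23 within replicate 1 and -0.44 within replicate 2.

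Creb3l4 (chr3:90237498-90244582) encodes a transcription factor of the CREB3 family, which is anchored in the endoplasmic reticulum until it is cut free. Its level was -1.61 and -0.92 in the knockout samples, against -0.46 and -0.49 in the control samples. The groups did not overlap, and the difference was -1.15 within replicate 1 and -0.43 within replicate 2. The group means differed by -0.79 ± 0.31, or 1.73-fold (SE; limma, adjusted p = 1.00, and 0.312 with the replicate block), with a 95% interval from -1.57 to -0.0087. It was the 1 factor with an unadjusted p under 0.05 in limma without the block; 1.72% of all genes tested were lower at this level.

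Foxa3 (chr7:19013283-19023539), a forkhead factor of gut endoderm that is found in goblet cells, did not share this pattern. It was at 2.15 and 2.17 in the knockout samples, against 2.37 and 2.10 in the control samples, so the knockout values lay between the control values. The difference was -0.22 within replicate 1 and 0.06 within replicate 2, with a 95% interval for the group means from -0.57 to 0.41.

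Gfi1, Spdef and Creb3l4 were also the 3 factors with an unadjusted p under 0.05 in limma's replicate-block fit, a level that 4.93% of all genes tested reached while lower in the knockout. With 2 samples a group, knockout arrays lay below both control arrays for 11.5% of all genes tested and above both for 14.5%. For the 10 factors the counts were 3 and 2, or 3 and 1 with Neurod1 taken by its other probe, a setting added after seeing the data. At an adjusted p under 0.05 the block fit called 0.33% of all genes lower and 0.0322% higher, against 0% in either direction without the block. The members called numbered 0 in both fits, and the smallest adjusted p among them was 0.312.

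**Figure D2:**
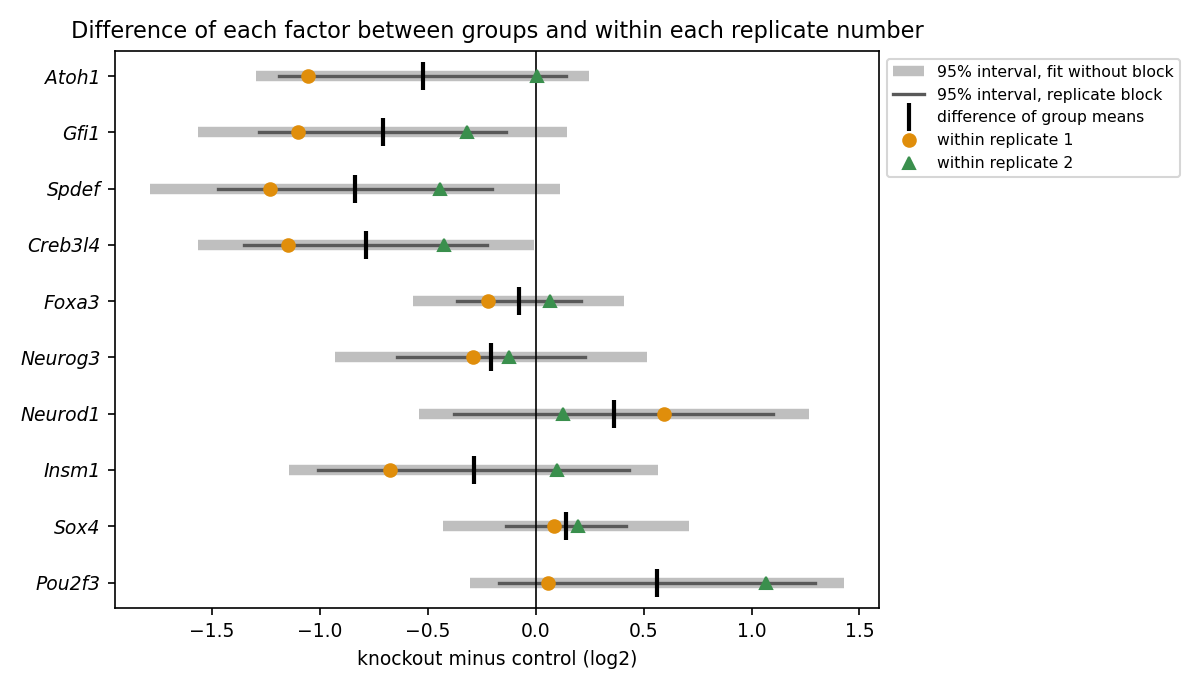
Knockout minus control for each factor (log2). The vertical tick is the difference of group means, the grey bar its 95% interval without the block, the thin line the interval with the replicate block, the circle the difference within replicate 1 and the triangle that within replicate 2. For Gfi1, Spdef and Creb3l4 both symbols lie left of 0, the replicate 1 symbol beyond -1.0 in each.

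Neurog3 (chr10:62133090-62134763), the basic helix-loop-helix factor that starts the enteroendocrine programme, was at -1.48 and -1.04 in the knockout samples, against -1.19 and -0.91 in the control samples. The groups overlapped, and replicate 1 was the lower array in both. The difference was -0.29 within replicate 1 and -0.13 within replicate 2 (limma, adjusted p = 1.00, and 0.655 with the replicate block).

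Neurod1 (chr2:79452637-79456636) follows Neurog3 in endocrine precursors, and its 2 probes pointed in opposite directions. The brighter probe was at -2.73 and -2.72 in the knockout samples, against -3.32 and -2.85 in the control samples, a difference of 0.36 in group means (95% interval from -0.54 to 1.27). The other was at -4.38 and -3.33 in the knockout samples, against -3.65 and -2.88 in the control samples, a difference of -0.59, and was not well above background in knockout replicate 1. No direction is therefore given for Neurod1.

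Insm1 (chr2:146221997-146225020), a zinc finger factor of endocrine differentiation, was at -2.74 and -2.26 in the knockout samples, against -2.06 and -2.35 in the control samples. Its arrays interleaved, and the difference was -0.67 within replicate 1 and 0.10 within replicate 2. Sox4 (chr13:28948919-28953699), an HMG-box factor that in mouse promotes the endocrine and tuft fates, was at 1.52 and 1.27 in the knockout samples, against 1.44 and 1.08 in the control samples. Sox4 differed by 0.08 within replicate 1 and by 0.20 within replicate 2, and its second probe by 0.30 and 0.22, so that the probes lay on the same side. The 95% interval for Sox4 ran from -0.43 to 0.71 (limma, adjusted p = 1.00, and 0.633 with the replicate block).

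Pou2f3 (chr9:43123927-43205755), the POU-domain factor of tuft cells, was at -1.71 and -1.01 in the knockout samples, against -1.76 and -2.08 in the control samples. It was the factor with the largest positive difference, 0.56 ± 0.35 (SE; limma, adjusted p = 1.00, and 0.485 with the replicate block). That difference was 0.06 within replicate 1 and 1.07 within replicate 2, where knockout replicate 2 stood above the other 3 arrays.

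Over the 10 factors the median difference was -0.25, against 0.02 for all genes tested. The medians within replicates were -0.48 in replicate 1 and 0.03 in replicate 2. Lower within both replicates were 4 factors (Gfi1, Spdef, Creb3l4 and Neurog3) and higher within both 3 (Neurod1, Sox4 and Pou2f3), where all genes tested gave 27.3% and 33.9%. With Neurod1 taken by its other probe these counts were 5 and 2, the median difference was -0.41, and the medians within replicates were -0.70 and -0.06. Within replicate 1, Atoh1, Gfi1, Spdef, Creb3l4 and Insm1 differed by -1.23 to -0.67. The other factors differed there by less: -0.29 for Neurog3, -0.22 for Foxa3, 0.06 for Pou2f3, 0.08 for Sox4 and 0.60 for the brighter Neurod1 probe. Between the 2 knockout arrays, replicate 2 was above replicate 1 by 0.86 for Gfi1, 0.93 for Spdef and 0.70 for Creb3l4, while the control arrays differed by 0.08, 0.14 and -0.03. The spread for these 3 genes thus lay among the knockout samples.

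Atoh1's values over the 4 arrays, each gene centred on its own mean, were closest to those of Insm1, Ern2 and Rgs13 among the other 121 tested genes of the lists below. The root-mean-square distances were 0.18, 0.19 and 0.20 log2 units. With 4 arrays this is a description only.

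The other genes of the secretory programme come from lists chosen with earlier results of these data known. Of 15 further fate regulators, 9 were tested, with a median difference of -0.02, 5 lower and 4 higher, and 0 called in either fit. Bhlha15, the MIST1 factor of mature Paneth and other secretory cells, was at -3.32 and -2.27 in the knockout samples, against -1.77 and -2.17 in the control samples. Xbp1, the unfolded-protein factor that Paneth and goblet cells need, was at 2.76 and 2.99, against 3.17 and 3.11 in control samples. Lmx1a, a factor of serotonin-making endocrine cells, differed by -0.82, with 1 knockout array well above background and the other not. Lmx1a therefore entered the test through the control group alone, where it was brighter. The knockout arrays lay below both control arrays for these 3 genes, as for 11.5% of all genes tested. These 3 were named for the smallest unadjusted p of their list, which favours such a gap. None passed the test (limma with replicate block, adjusted p = 0.457 for Bhlha15, 0.411 for Xbp1 and 0.479 for Lmx1a). Among the other tested regulators the groups overlapped for 5. Sox9, named after its values were seen, lay above both control arrays, by 0.13 in group means.

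The Notch pathway, which sets Atoh1, had a median difference of 0.03 over its 15 genes, 7 lower and 8 higher, with 0 called in either fit. Hes1, the repressor of Atoh1, was named after its values were seen: it was at 2.47 and 2.34 in the knockout samples, against 2.51 and 2.37 in the control samples, a difference of -0.03. Dll1, a ligand made by secretory progenitors, was named in the same way and differed by 0.03. Dll4, the other such ligand, was at -1.93 and -1.98 in the knockout samples, against -1.56 and -1.34 in the control samples (limma with replicate block, adjusted p = 0.409). The largest differences were in dim genes. Hey1, a Notch target, was at -4.33 and -3.46 in the knockout samples, with 1 of them well above background, against -2.71 and -1.33 in the control samples (limma with replicate block, adjusted p = 0.123). Hey1 therefore entered the test through the control group alone, where it was brighter. Jag2, a ligand, averaged -3.64 in the knockout, against -5.45 in the control, where neither array was well above background. It therefore entered the test through the knockout group alone, where it was brighter. Its mean knockout signal was at least 1.74-fold the control bound on these arrays, a value without sampling error, and Jag2 was not called (limma with replicate block, adjusted p = 0.300).

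**Figure D3:**
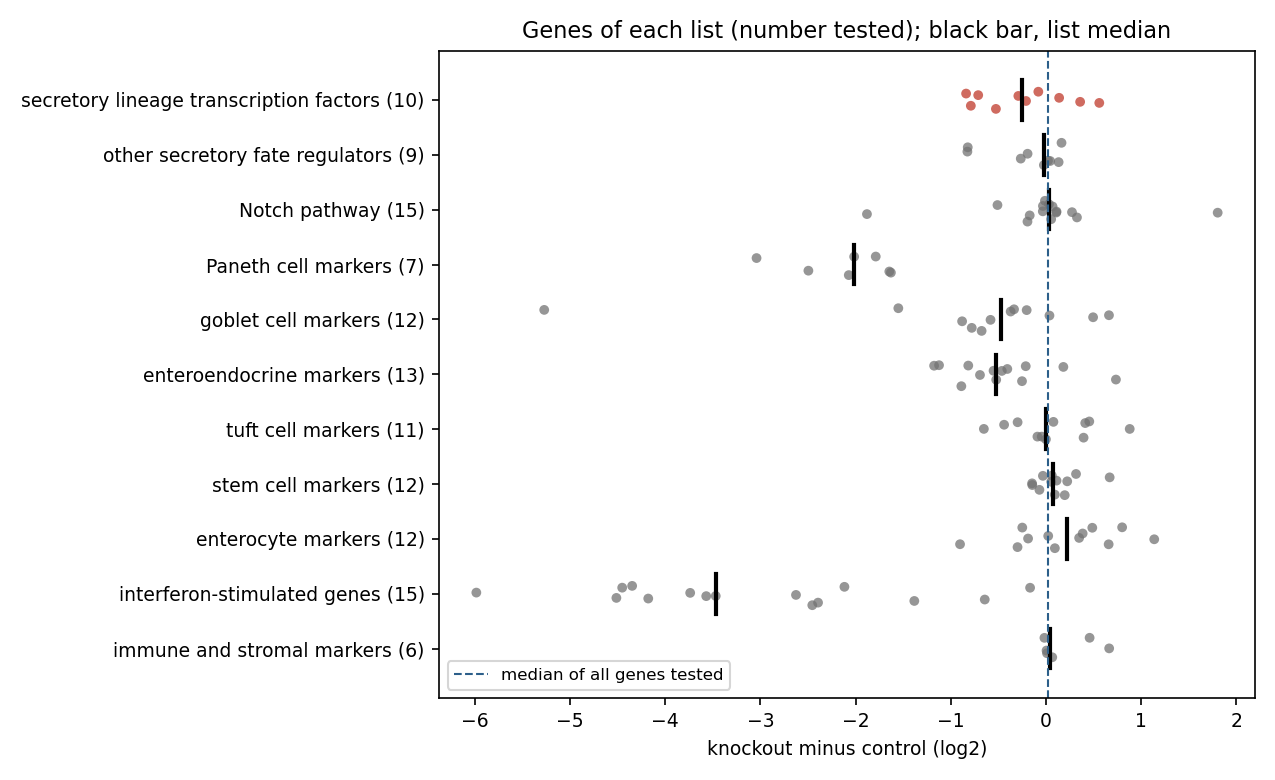
Knockout minus control (log2) for the tested genes of each list, with the number tested in brackets; black bars are list medians and the dashed line the median of all genes tested. The factors (red) spread from -0.84 to 0.56, while the Paneth cell markers lie between -3.04 and -1.63. The goblet point at -5.27 is Retnlb, named after its value was seen, which had 1 control array at 5.16 and the other 3 between -4.18 and -1.14.

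Products of the lineages that these factors direct were described beside them, first those of Paneth cells, the antimicrobial cells of the crypt base. All 7 Paneth markers tested of 11 listed were lower within both replicates, as were 27.3% of all genes tested. Their median was -2.01 (-2.27 in replicate 1 and -1.58 in replicate 2). In the replicate-block fit 6 fell, against 0.33% of all genes. Without the intensity trend that fit called 0 genes. Ang4, an antimicrobial angiogenin, was at 0.77 and 1.16 in the knockout samples, against 3.21 and 3.72 in the control samples (limma with replicate block, adjusted p = 0.00504; without the block, 0.224). Clps and Defa3, a colipase and an alpha-defensin, differed by -3.04 and -1.64 (limma with replicate block, adjusted p = 0.00504 and 0.00787). Alpha-defensins are nearly identical, so their probes may share signal. In bulk RNA, fewer Paneth cells in the sort and less RNA per cell cannot be told apart.

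Beside Gfi1, Spdef and Creb3l4, the mean level of the 7 Paneth markers was 3.03 and 3.84 in the knockout samples, against 5.34 and 5.73 in the control samples. The 12 goblet markers tested averaged 1.59 and 2.40 in the knockout samples, against 2.53 and 3.02 in the control samples. Without Retnlb, a setting added after seeing the data, the other 11 averaged 2.11 and 2.83 in the knockout samples, against 2.87 and 2.83 in the control samples. The means of replicate 2 then showed no gap, while the median difference within replicate 2 was -0.12. Of these 11 genes, 6 were lower and 1 was higher within both replicates, where all genes tested gave 27.3% and 33.9%. As with Gfi1, Spdef and Creb3l4, knockout replicate 1 was the lowest array in both lists, with or without Retnlb. That array also had the lowest mean level for the enteroendocrine markers (-1.95, the others -1.61 to -1.01). The same held for the further fate regulators (0.41, the others 0.71 to 0.78) and all genes tested (-0.15, the others -0.14 to -0.07). It was not the lowest for the Notch, tuft, stem cell, enterocyte, interferon-stimulated or immune and stromal lists. The part of Paneth or goblet RNA in the values of the factors was not tested.

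Of the goblet markers, 9 were lower and 3 higher, with a median of -0.48 (-0.74 in replicate 1 and -0.13 in replicate 2) and 0 called in either fit. Spink4, a goblet trypsin inhibitor, was at 2.61 and 3.93 in the knockout samples, against 4.61 and 5.04 in the control samples (limma with replicate block, adjusted p = 0.0815). Ern2, the goblet stress sensor IRE1 beta, differed by -0.78 and Fxyd3, an ion-pump modulator, by -0.58 (adjusted p = 0.273 and 0.200 in the same fit). The 3 higher markers, named after their values were seen, were Clca1, Zg16 and Fcgbp. They differed by 0.66, 0.50 and 0.04 (adjusted p = 0.446, 0.401 and 0.888 in the same fit).

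Of the enteroendocrine products, 13 of 17 listed were tested. Lower within both replicates were 11 of them and higher 0, where all genes tested gave 27.3% and 33.9%. Their median was -0.52, with medians of -0.53 and -0.51 within replicates 1 and 2, and 0 were called in either fit. Chgb, a granule protein, was at 1.57 and 2.25 in the knockout samples, against 2.42 and 3.02 in the control samples (limma with replicate block, adjusted p = 0.0561). Cpe, a prohormone-processing enzyme, differed by -1.17 and Gcg, the glucagon precursor, by -1.12 (adjusted p = 0.113 and 0.288 in the same fit). The difference between these products and Neurog3, Neurod1 and Insm1 was not tested.

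Tuft cell markers had a median difference of 0.0013 over 11 tested genes of 15 listed, 5 lower and 6 higher, with 0 called in either fit. Alox5ap, a leukotriene synthesis protein, was higher on both knockout arrays than on either control array, by 0.41 in group means (limma with replicate block, adjusted p = 0.445). Il25, the tuft cytokine, differed by -0.65 (adjusted p = 0.532 in the same fit). Only 1 knockout array was well above background for Il25. It therefore entered the test through the control group alone, where it was brighter. Dclk1 and Trpm5, named after their values were seen, differed by -0.04 and 0.08.

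All 12 genes of the stem cell list, Lgr5 among them, were well above background on all 4 arrays. That level does not single out stem cells: a filter asking it of all 4 arrays kept 23043 of the 24865 genes tested. The immune genes Cd8a and Ptprc also met it on all 4 arrays. The stem cell list had a median difference of 0.08, with 0 called in either fit. Tnfrsf19 differed by 0.67, Ascl2 by 0.23 and Znrf3 by 0.32 (limma with replicate block, adjusted p = 0.118, 0.479 and 0.503). The 12 enterocyte genes had a median of 0.22, with 0 called in either fit. Higher on both knockout arrays than on either control array were 7 of them, against 14.5% of all genes tested. Lower on both was 1 of them, against 11.5% of all genes tested. Alpi differed by 1.14, Apoa4 by 0.80 and Anpep by -0.90 (limma with replicate block, adjusted p = 0.250, 0.281 and 0.179). Among immune and stromal genes 6 of 10 were tested, with a median of 0.04 and 0 called, and Cd8a and Ptprc differed by 0.67 and 0.07. Of the 4 genes not tested, Col1a1 and Pdgfra were well above background on 0 arrays, Vim on 1 and Pecam1 on 2. Itgam, a myeloid integrin named after its values were seen, was at 7.67 and 8.34 in the knockout samples, against 7.69 and 8.36 in the control samples. Whether its probe reports Itgam RNA alone was not tested.

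Ifnar1, the targeted gene, was lower in both samples labelled knockout. It was at -1.76 and -2.28 in the knockout samples, against -0.21 and -0.37 in the control samples (limma with replicate block, adjusted p = 0.0496; without the block, 0.478), and no source used here places its probe inside or outside the disrupted part. All 15 interferon-stimulated genes tested of 17 listed were lower within both replicates, as were 27.3% of all genes tested, and their median was -3.47. In the replicate-block fit 8 fell, against 0.33% of all genes. Among them were Irf7, a transcription factor of the interferon response (-4.35), Oas1a, an RNA-sensing synthetase (-3.47), and Ifi44 (at least 24.6-fold lower) (limma with replicate block, adjusted p = 0.0131, 0.0145 and 0.0335). Ifi44 was well above background on no knockout array, so it entered the test through the control group alone, and its bound has no sampling error.

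**Figure D4:**
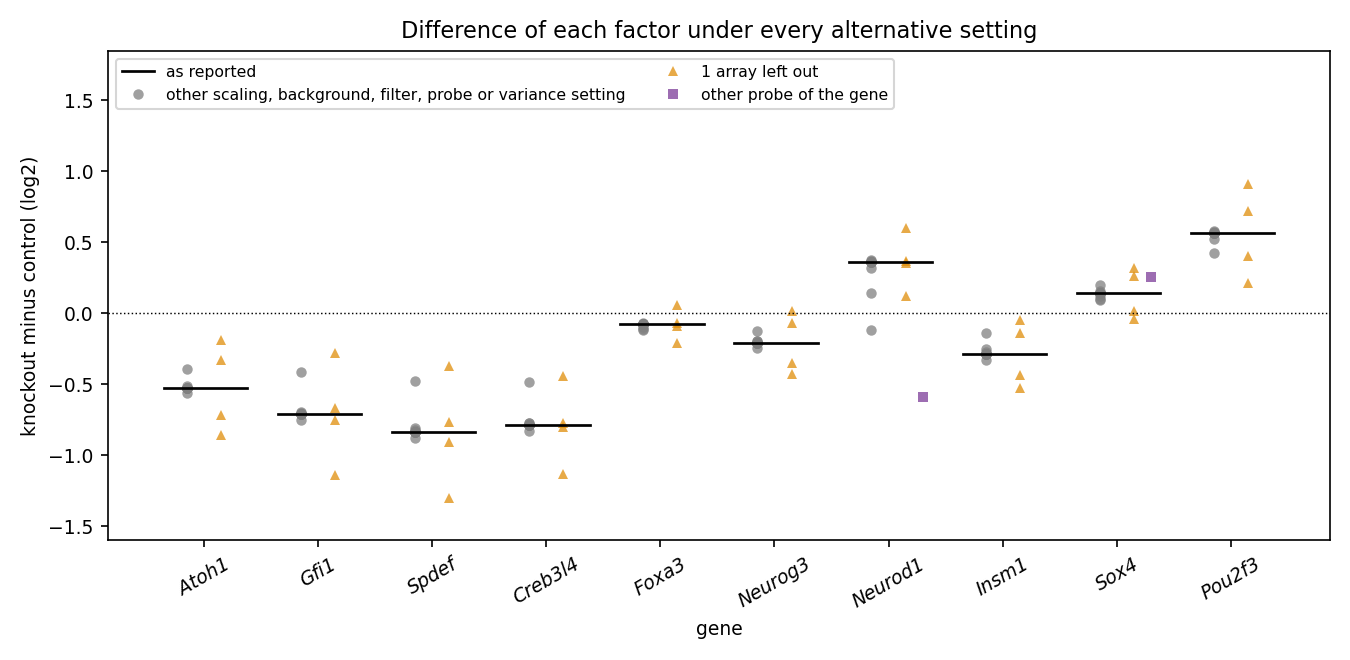
Knockout minus control (log2) for each factor under each alternative; black lines, values as reported; grey circles, other scaling, background, filter, probe or variance settings; orange triangles, 1 array left out; purple squares, the gene's other probe. Atoh1, Gfi1, Spdef, Creb3l4 and Insm1 stay below 0 and Pou2f3 above 0 throughout, while Neurod1 changes side with the probe.

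Under the 15 alternatives, differences ran from -1.30 to -0.37 for Spdef, from -1.14 to -0.44 for Creb3l4, from -1.14 to -0.28 for Gfi1, from -0.86 to -0.19 for Atoh1 and from 0.21 to 0.91 for Pou2f3. Without knockout replicate 1, the array where they were lowest, Spdef differed by -0.37, Creb3l4 by -0.44 and Gfi1 by -0.28. With normexp background correction Spdef differed by -0.47, Creb3l4 by -0.49 and Gfi1 by -0.41. Under none of these alternatives was any of the 10 factors called.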

How the data were processed

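Total RNA from the 4 sorted samples was amplified and labelled with Cy3, per the labels' protocols. The deposited scanner tables hold spot intensity on a linear scale, background-subtracted by Agilent Feature Extraction 12.0.3.1 per the file headers (11.5.1.1 per the submitters' processing notes). The deposited series table held the same intensity times 1 constant per array, 5.60 to 6.68; its target is unknown, and its column medians were 239 and 223 in the knockout and 249 and 231 in the control. Control and outlier spots were left out, the log2 of the processed signal was taken, each array's 75th percentile was subtracted and spots of a probe were averaged. Probes well above background on both arrays of a group were kept. Unversioned accessions matched to RefSeq (GRCm38.p6) named 28331 of 55681 probes. The brightest probe stood for a gene, which gave 24865 genes, 14799 with a symbol. Between 63.3% (knockout replicate 1) and 67.7% (knockout replicate 2) of spots were well above background. The number of arrays limits the precision.

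Groups were compared across all genes with limma 3.58.1 (R 4.3.3), with an intensity trend in the variance and Benjamini-Hochberg adjustment at 0.05, without a block and with the replicate number, which is also the slide, as a block. That fit has 1 residual degree of freedom. Same-numbered samples deviated together: knockout 2 minus knockout 1 correlated with control 2 minus control 1 at r = 0.563 over genes, which are not independent replicates. The scripts were tested on simulated data. The members and lists were chosen with earlier results of these data known. Named are all members, Ifnar1, the 3 genes of each other list with the smallest unadjusted p without the block, and the 3 genes closest to Atoh1. Of the genes this rule gives, 2 are not reported here. A gene well above background on no array of a group has a bound: the brighter mean against, per array, the higher of the lowest well-above-background signal and its own. Alternatives covered the block, scaling, background correction (normexp, offset 50, on the median signal, in place of the mean signal), the series table, the dim-probe filter, the probe rule, outlier spots, the variance trend and each array left out.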

Additional observations from a re-analysis of the deposited data

How the results depend on the processing

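The fit without a block called 0 genes in either direction (limma, 427 lower and 258 higher at an unadjusted p under 0.05), while the replicate block called 82 lower and 8 higher; without an intensity trend the block called 0. Leaving out 1 array gave 9 lower genes without knockout replicate 1, 88 without knockout replicate 2, 18 without control replicate 1 and 71 without control replicate 2, and 0 to 3 higher ones. In these fits the lone sample of a group was assumed to vary like the others. Under every one of these alternatives, 0 of the 10 factors were called, with a smallest adjusted p of 0.312, and their median difference lay between -0.48 (without knockout replicate 2) and -0.06 (without knockout replicate 1). Atoh1, Gfi1, Spdef, Creb3l4, Insm1 and Pou2f3 kept their direction. Neurod1 was at -0.12 with the mean of its probes and -0.59 with its other probe, which put the median of the 10 factors at -0.41. Leaving out 1 array moved Neurog3 to between -0.43 and 0.015 (positive without knockout replicate 1), Foxa3 to between -0.21 and 0.055 (positive without control replicate 1), and Sox4 to between -0.040 and 0.32 (negative without control replicate 2). The cause was not tested, except that for Neurod1 the probe itself was exchanged. The median over all genes stayed between -0.02 and 0.04 under the other scalings. With 2 samples a group, an exact permutation test of 1 gene cannot go below p = 0.333 (two-sided).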
